A study of Mus musculus with 9 samples.

Results

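The TGF-beta ligands Tgfb2 and Tgfb3, the receptors Tgfbr1 and Tgfbr2, and the SMADs Smad1, Smad2, Smad3, Smad4, Smad5 and Smad7 were examined in growing mouse oocytes. These 10 genes were chosen by gene name. Rows of 9 of them were found among the 28052 genes of the count matrix, and Tgfbr2 was not analysed here. RNA-Seq had been carried out on 9 pools, 3 each of XX, XO, and XY oocytes, from females that the labels give as C57BL/6 (B6) at 18 days post partum. Each pool held 30 oocytes, 10 of 50 to 55 µm and 20 of 55 to 60 µm in diameter. XY females and their XX littermates were sired by B6.YTIR males, which carry a Mus musculus domesticus Y chromosome on the B6 background. XO females were sired by males with the Paf mutation, backcrossed from C3H/HeSnJ to B6, so that genotype and sire stock cannot be told apart in any contrast with XO. The labels describe the 3 pools of a genotype as biological triplicates without naming animals, and p-values measure the spread between pools.

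TGF-beta ligands are secreted dimers that bring a type II and a type I receptor together on the cell surface. The type I receptor then phosphorylates receptor-regulated SMADs, which join the common SMAD4 and act on transcription in the nucleus. SMAD2 and SMAD3 carry signals of TGF-betas, activins and GDF9, whereas SMAD1 and SMAD5 carry those of bone morphogenetic proteins (BMPs), and SMAD7 is an inhibitor that is itself induced by the pathway. In the ovary, the growing oocyte is best known as a source of ligands of this superfamily, GDF9 and BMP15, which act on the granulosa cells around it.

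The 250 bases upstream of the transcription start are shown for Tgfb2, the most abundant of the 9 genes, and for Smad3 and Smad5, whose transcript levels varied most between pools. The sequences are those of RefSeq on GRCm38.p6, written 5′ to 3′ on the strand of the gene. Of the 9 genes, 5 were matched in the promoter table (Tgfb2, Tgfbr1, Smad1, Smad3 and Smad5). The windows lie at chr1:186705990-186706239 (minus strand) for Tgfb2, chr9:63757995-63758244 (minus strand) for Smad3 and chr13:56702760-56703009 (plus strand) for Smad5, the latter before the first of 3 annotated starts. Capitals mark the TATA box TATAAA, the E-box CACGTG and the SMAD box CAGAC, each searched on both strands.
Tgfb2: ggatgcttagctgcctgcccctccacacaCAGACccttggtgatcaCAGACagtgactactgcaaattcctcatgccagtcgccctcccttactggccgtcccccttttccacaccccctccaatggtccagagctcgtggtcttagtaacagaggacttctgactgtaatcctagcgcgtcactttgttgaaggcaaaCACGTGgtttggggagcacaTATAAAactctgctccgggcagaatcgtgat
Smad3: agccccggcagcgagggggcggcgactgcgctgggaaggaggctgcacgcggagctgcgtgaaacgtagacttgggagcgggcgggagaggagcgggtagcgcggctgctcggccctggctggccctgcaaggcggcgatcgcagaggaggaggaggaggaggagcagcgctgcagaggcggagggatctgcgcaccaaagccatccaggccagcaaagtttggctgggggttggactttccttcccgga
Smad5: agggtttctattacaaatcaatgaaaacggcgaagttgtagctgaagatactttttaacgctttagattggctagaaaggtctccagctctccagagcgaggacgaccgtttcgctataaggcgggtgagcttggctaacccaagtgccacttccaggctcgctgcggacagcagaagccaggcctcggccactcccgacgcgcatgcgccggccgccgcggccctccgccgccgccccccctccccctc
The Tgfb2 window held 1 TATA box, whose first base is 31 bases upstream of the start, 1 E-box at 51 bases, and 2 SMAD boxes at 221 and 204 bases. The windows of the other 4 matched genes held none of these letters. Among 32851 windows of the same length, 12.4% held the TATA box, 6.02% the E-box and 42.2% the SMAD box, so that a SMAD box was common. A match in letters is not a binding site.

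The pools had between 2130145 and 3157338 unique molecular identifiers (UMIs) on genes. A UMI marks 1 captured transcript at its 5′ end, so that levels of different genes were compared without correction for length. Levels are given as normalized CPM, the UMI count scaled by 1 factor per pool that the authors took from ERCC spike-in RNAs. All 11 oocyte markers were expressed, with a summed level of 18520 to 40531 normalized CPM. Among them Zp1, Nobox and Ooep were called lower in XX than in XO (log2 fold changes -3.81, -2.85 and -2.21) and lower in XY than in XO (-3.70, -2.38 and -1.95), with XO2 and XO3 far above XO1. Nobox, for example, had 56.4, 522 and 1138 normalized CPM in XO1, XO2 and XO3 and at most 185 in the other pools. Tgfb3, Smad3, Smad5 and Gdf9 were also higher in XO2 and XO3 than in XO1, as described for each, and the part of this shift in their values was not tested. Of 13 granulosa markers, 10 had a row and 4 passed the filter on low counts. Their summed level ranged over 74.6 to 126 (XX), 73.0 to 212 (XO) and 87.6 to 144 (XY) normalized CPM, and Inha, Amhr2, Gja1, Gatm and Wt1 had at most 3 UMIs each over all 9 pools. Fshr had 31 UMIs, with levels from 0 in XO1 to 4.52 normalized CPM in XO3. The 4 tested gave most of the sum. They were Esr2 (mean 56.1, range 18.6 to 147 normalized CPM), Nr5a2 (30.9, 21.9 to 51.6), Cyp19a1 (19.0, 3.62 to 44.4) and Kitl (12.1, 5.69 to 19.2). Kitl was called higher in XX in the contrast with XO. Endothelial markers summed to between 20.7 and 146, theca and stroma markers to between 6.65 and 12.9, and blood and immune markers to at most 1.69 normalized CPM. Pecam1 gave most of the endothelial sum (14.5 to 132), whereas Tek ranged from 4.14 to 14.1 and Cdh5 and Kdr reached at most 5.11 and 1.39. The 6 tested Y-linked genes of the label check were higher in XY oocytes in both contrasts with XY. Mitochondrial transcripts took 13.1% of the gene UMIs in XO1 and 10.8% in XY1, whereas they took between 2.65 and 6.02% in the other 7 pools. In pools of cells, fewer cells with a transcript and less of it per cell cannot be told apart.

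Averaged over the 9 pools, Tgfb2 stood first at 1431 normalized CPM, rank 103 of 28051 genes, and took between 76.0 and 87.4% of the UMIs of the 9 genes. It was followed by Smad2 (141), Tgfb3 (54.3), Tgfbr1 (37.6), Smad5 (22.3), Smad3 (18.4), Smad4 (12.2) and Smad1 (8.69), and Smad7 was almost undetected (0.0671). In every pool Tgfb2 and Smad2 kept the first 2 places. The ranges of the neighbours Tgfb3 and Tgfbr1 overlapped, 37.8 to 74.5 and 31.6 to 42.8 normalized CPM, as did those of Tgfbr1 and Smad5, those of Smad5, Smad3 and Smad4 and those of Smad4 and Smad1. Genes of 1 pool share its scaling factor, so these overlaps do not show the order within a pool. Within pools Tgfb3 was above Tgfbr1 except in XO1 (73 against 81 UMIs). Tgfbr1 was above Smad5 except in XO3 (56 against 68), and Smad5 above Smad3 except in XX2 (41 against 46). Smad3 was above Smad4 except in XO1 and XY1, and Smad4 above Smad1 except in XX1 (26 against 30). Some margins were small, such as 21 against 19 UMIs for Smad4 and Smad1 in XY1.

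**Figure D1:**
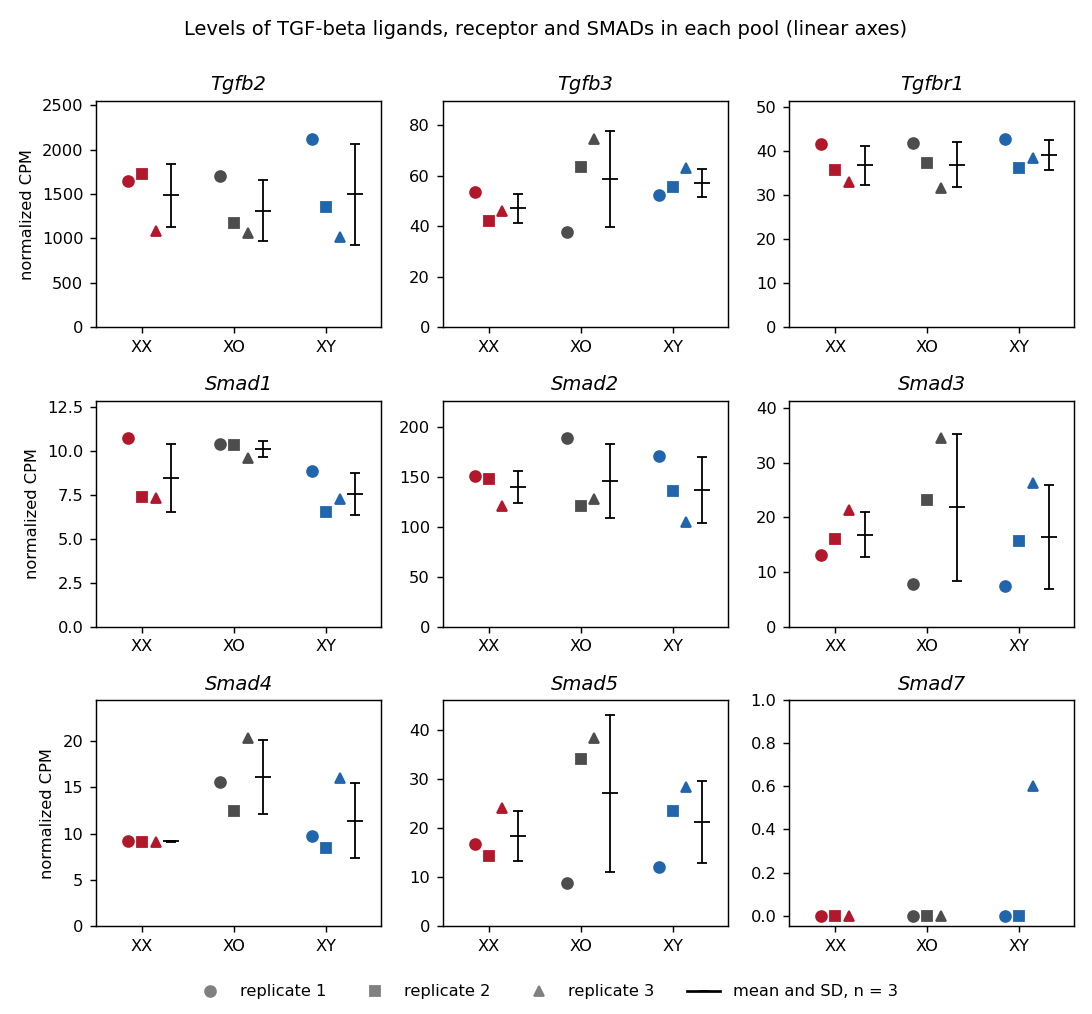
Each panel plots 1 gene, with normalized CPM on a linear vertical axis and the 3 genotypes on the horizontal axis. Points are single pools, with the shape giving the replicate number, and bars give the mean and SD of 3 pools (not drawn for Smad7). Smad4 lies between 9.10 and 9.26 normalized CPM in the 3 XX pools and between 12.4 and 20.3 in XO, whereas the genotypes overlap for Tgfb2, Tgfb3, Tgfbr1, Smad2, Smad3 and Smad5.

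The ligands were examined first. Tgfb2 (chr1:186622792-186705989, minus strand, GRCm38), which encodes TGF-beta 2, had 1652, 1719.9 and 1082 normalized CPM in XX1, XX2 and XX3, 1704, 1169.9 and 1065 in XO1, XO2 and XO3, and 2119, 1352 and 1017 in XY1, XY2 and XY3. XX3, XO3 and XY3 were the lowest pools of their genotypes, and the genotypes overlapped. The group means were 1484 ± 350.3 (XX), 1313 ± 343 (XO) and 1496 ± 565 (XY) normalized CPM (SD, n = 3). Tgfb2 did not pass the test (unadjusted p below 0.05, the threshold of the study) in any contrast, with log2 fold changes of 0.18 for XX against XO (95% interval -0.75 to 1.10), -0.011 for XX against XY (-0.94 to 0.91) and 0.19 for XY against XO (-0.74 to 1.11).

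Tgfb3 (chr12:86056745-86079041, minus strand) encodes TGF-beta 3. Its level was 53.4, 42.0 and 46.0 normalized CPM in the XX pools, 37.8, 63.6 and 74.5 in the XO pools and 52.5, 55.7 and 63.1 in the XY pools. XO1 was the lowest and XO3 the highest of all pools, so that the XO pools spanned the whole range. The log2 fold changes were -0.31 for XX against XO (interval -0.98 to 0.36), -0.28 for XX against XY (-0.94 to 0.39) and -0.037 for XY against XO (-0.71 to 0.63), and none passed the test. Tgfb3 overlaps Gm37804 and Gm48008 on the opposite strand, which had 19 and 9 UMIs over all pools beside 1242 of Tgfb3, and the reads had been aligned with their strand.

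Within a pool, Tgfb2 outnumbered Tgfb3 by between 14.3 and 45.1 UMIs to 1. This ratio does not depend on how a pool is scaled. Tgfb3 made up 3.13, 2.38 and 4.08% of the UMIs of both ligands in the XX pools, 2.17, 5.16 and 6.54% in the XO pools and 2.42, 3.95 and 5.84% in the XY pools. XX3, XO3 and XY3 had the highest share of their genotypes, and the lowest XO share was below all XX shares while the highest was above them. The exact binomial 95% intervals of XO1 (1.70 to 2.72%) and XO3 (5.499 to 7.71%), which cover counting error only, did not overlap.

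Of the receptors, Tgfbr1 (chr4:47353222-47414931, plus strand) encodes the type I receptor that phosphorylates SMAD2 and SMAD3. It had 41.7, 35.7 and 32.9 normalized CPM in the XX pools, 41.9, 37.2 and 31.6 in the XO pools and 42.8, 36.1 and 38.3 in the XY pools. Of the 8 genes tested it varied least, with a highest pool 1.35 times the lowest, and XX1, XO1 and XY1 were the highest pools of their genotypes. The log2 fold changes were -0.0071 for XX against XO (interval -0.56 to 0.55), -0.087 for XX against XY (-0.64 to 0.46) and 0.080 for XY against XO (-0.47 to 0.63). None passed the test, and the intervals leave room for changes of about 0.5 on the log2 scale in either direction.

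Among the receptor-regulated SMADs, Smad2 (chr18:76241580-76305731, plus strand) was the most abundant. Its level was 151, 148 and 121 normalized CPM in the XX pools, 188, 120.5 and 128 in the XO pools and 171, 136 and 105 in the XY pools. The genotypes overlapped, with means of 140.0 ± 16.3, 146 ± 37.2 and 137 ± 33.0 (SD, n = 3), and the log2 fold changes were -0.058 for XX against XO (interval -0.74 to 0.63), 0.028 for XX against XY (-0.66 to 0.71) and -0.085 for XY against XO (-0.77 to 0.60). Smad2 did not pass the test in any contrast.

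Smad3 (chr9:63646767-63757994, minus strand), the other SMAD of TGF-beta and activin signals, was the most variable of the 8 genes. It had 13.2, 16.1 and 21.3 normalized CPM in the XX pools, 7.77, 23.3 and 34.4 in the XO pools and 7.44, 15.6 and 26.3 in the XY pools. XO1 and XY1 were the lowest pools and XO3 the highest, 4.63 times the lowest. The SD was 13.4 within XO and 9.44 within XY oocytes, more than the differences among the group means of 16.9, 21.8 and 16.4. The intervals of the log2 fold changes were accordingly wide, -1.63 to 0.90 for XX against XO (-0.37), -1.23 to 1.29 for XX against XY (0.026) and -1.66 to 0.88 for XY against XO (-0.39). In same-numbered pools, which the labels do not name as pairs, XY was below XO in 3 of 3 cases with the spike-in factors. With these factors the median log2 fold change of all genes tested was -0.30 in this contrast. The Smad3 UMIs, not corrected for depth, were higher in XY (16, 48 and 87) than in XO (15, 45 and 61). A fit with a replicate block gave a log2 fold change of -0.38 for XY against XO, which was not called (edgeR, adjusted p = 0.583).

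Smad5 (chr13:56703010-56742377, plus strand), a SMAD of BMP signals, had a similar pattern. It had 16.7, 14.4 and 24.1 normalized CPM in the XX pools, 8.80, 34.1 and 38.4 in the XO pools and 12.1, 23.4 and 28.4 in the XY pools. Again XO1 and XY1 were the lowest pools. The highest pool had 4.36 times the lowest, and the log2 fold changes were -0.55 for XX against XO (interval -1.74 to 0.63), -0.22 for XX against XY (-1.39 to 0.96) and -0.34 for XY against XO (-1.52 to 0.84). Smad5 did not pass the test in any contrast with all pools in the fit.

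Smad1 (chr8:79338395-79399518, minus strand), the other SMAD of BMP signals in this set, was the lowest of the 8 genes tested. It had 10.7, 7.35 and 7.31 normalized CPM in the XX pools, 10.4, 10.3 and 9.60 in the XO pools and 8.83, 6.51 and 7.24 in the XY pools, from 17 to 30 UMIs per pool. All XO pools were above all XY pools. The log2 fold change of XY against XO was nevertheless -0.43 with an interval of -1.13 to 0.28 (edgeR, adjusted p = 0.627), and those of XX against XO (-0.26, interval -0.96 to 0.44) and XX against XY (0.17, interval -0.53 to 0.87) also did not pass the test.

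The balance of these SMADs within a pool was then compared, since it is free of the scaling. Smad2 and Smad3 together made up 76.4 to 91.1% of the UMIs of Smad1, Smad2, Smad3 and Smad5, with group means of 85.3 ± 3.20% (XX), 81.6 ± 8.27% (XO) and 83.9 ± 5.43% (XY) (SD, n = 3). Among these SMADs, those of TGF-betas and activins thus had more transcripts than those of BMPs in every pool. Ligands and receptors were not counted in this share, so it does not rank the arms as a whole. Smad3 made up 8.04, 9.81 and 15.0% of the UMIs of Smad2 and Smad3 in the XX pools, 3.96, 16.2 and 21.2% in the XO pools and 4.17, 10.3 and 20.0% in the XY pools. Smad5 made up 61.0, 66.1 and 76.7% of the UMIs of Smad1 and Smad5 in the XX pools, 45.9, 76.7 and 80.0% in the XO pools and 57.8, 78.3 and 79.7% in the XY pools. XO1 and XY1 had the lowest of all 9 shares for both pairs, and the spread within XO and within XY was larger than any difference between group means. XO1 and XY1, with the lowest shares of Smad3, Smad5 and, for XO1, Tgfb3, were also the pools with the highest mitochondrial shares, and the part of this in the result was not tested.

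**Figure D2:**
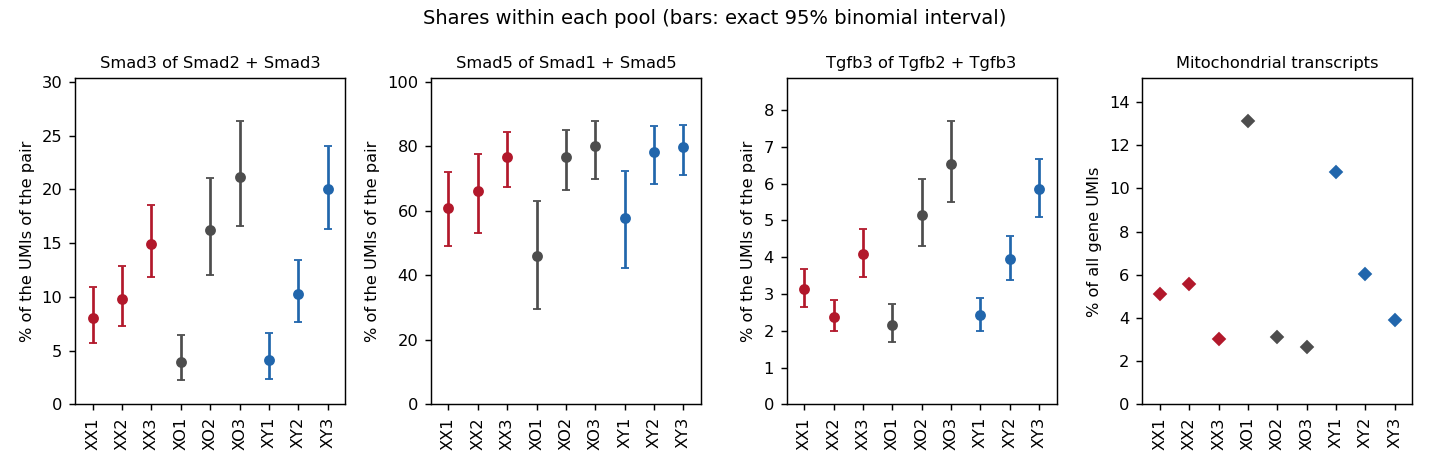
The first 3 panels plot, for each pool, the percentage of a gene among the UMIs of a pair of genes, with exact 95% binomial intervals that cover counting error only, and the last panel plots mitochondrial transcripts as a percentage of all gene UMIs. Smad3 ranges from 3.96% of Smad2 and Smad3 in XO1 to 21.2% in XO3, and XO1 and XY1 have mitochondrial shares of 13.1 and 10.8%.

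Smad4 (chr18:73639009-73703780, minus strand), the common partner of the receptor-regulated SMADs, was the only gene of the 9 called in a contrast. It had 9.26, 9.10 and 9.14 normalized CPM in XX1, XX2 and XX3, 15.5, 12.4 and 20.3 in XO1, XO2 and XO3, and 9.76, 8.46 and 16.0 in XY1, XY2 and XY3, from 21 to 53 UMIs per pool. All XX pools were below all XO pools, and XY3 lay in the range of the XO pools while XY1 and XY2 were close to the XX pools. In same-numbered pools of XO and XY, which the labels do not name as pairs, XY was below XO in 3 of 3 cases. This holds with the spike-in factors, where the median log2 fold change of all genes tested was -0.30 for XY against XO. The group means were 9.17 ± 0.0825 (XX), 16.1 ± 3.99 (XO) and 11.4 ± 4.03 (XY) normalized CPM (SD, n = 3). Smad4 was lower in XX than in XO oocytes, with a log2 fold change of -0.81 ± 0.34 (SE, interval -1.58 to -0.033, edgeR, unadjusted p = 0.0425), which did not pass after adjustment over all genes tested (adjusted p = 0.265). The log2 fold changes were -0.32 for XX against XY (interval -1.09 to 0.45) and -0.49 for XY against XO (-1.25 to 0.28), and neither passed the test. With a replicate block, XY against XO was -0.50 and was also not called (edgeR, adjusted p = 0.411).

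The call of Smad4 depended on the scaling. The median log2 fold change of all genes tested was -0.46 for XX against XO with the spike-in factors, -0.033 with TMM factors on the genes and 0.42 with scaling to the spike-in totals. The log2 fold change of Smad4 was -0.35 with TMM factors (adjusted p = 0.690) and 0.085 with the spike-in totals (adjusted p = 0.982), and neither was called by edgeR. Smad4 stood at -0.35 relative to the median of all genes with the spike-in factors. Per 100 UMIs of Smad1, Smad2, Smad3 and Smad5, which are free of the scaling, the XX pools had 4.997 ± 0.224 UMIs of Smad4, the XO pools 7.82 ± 1.62 and the XY pools 6.38 ± 2.78 (SD, n = 3). The ranges were 4.84 to 5.25 in XX, 6.59 to 9.65 in XO and 4.66 to 9.58 in XY, so that XX and XO did not overlap on this measure. It uses the same Smad4 counts again, over a denominator of 531 to 571 UMIs in XX and 364 to 416 in XO pools. The Smad4 UMIs themselves, not corrected for depth, overlapped, with 26, 26 and 30 in XX1 to XX3 and 30, 24 and 36 in XO1 to XO3.

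Smad7 (chr18:75367529-75395935, plus strand), the inhibitory SMAD, had no UMI in 8 pools and 2 UMIs in XY3, which are 0.604 normalized CPM. It did not pass the filter and was not tested. A count of 0 over the 3 pools of a genotype allows up to 3 UMIs, a mean of 0.335 normalized CPM in XX and 0.532 in XO oocytes. The XY mean was 0.201, from the 2 UMIs of XY3, and the limit for a count of 0 does not apply to it. No difference between genotypes was detectable at this depth.

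In the contrasts as a whole, 1 of the 8 genes tested was called in XX against XO at an unadjusted p below 0.05, the threshold of the study, and it was lower in XX. Among all 10993 genes tested, 16.7% were called lower and 1.4% higher in XX in this contrast. In XX against XY 0 of the 8 genes were called, where 1.41% of all genes were called higher and 4.39% lower in XX. In XY against XO 0 of the 8 were called, where 1.69% of all genes were called higher and 8.24% lower in XY. DESeq2 with the spike-in factors gave 1, 0 and 0 calls, and with its own size factors 0 in all 3 contrasts. After Benjamini-Hochberg adjustment 0 of the 8 genes passed in any contrast, and 0%, 0.0819% and 0.0364% of all genes did. Pools of the genotypes did not overlap for 1 gene in XX against XO (Smad4), for 0 genes in XX against XY and for 1 gene in XY against XO (Smad1), beside 16.4%, 15.8% and 10.2% of all genes. With 8 genes, these counts are near those that the background shares would give.

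With the spike-in factors, 7 of the 8 genes had negative log2 fold changes in XX against XO, 5 in XX against XY and 6 in XY against XO, but 6 of 8 were positive in XX against XO with TMM factors and all 8 with the spike-in totals. The median over the 8 genes was -0.29 for XX against XO, beside -0.46 over all genes tested. It was -0.049 for XX against XY, beside -0.19, and -0.21 for XY against XO, beside -0.30. The median of the 8 genes thus lay above that of all genes in each contrast with all pools in the fit, but without XO1 it lay below for XY against XO (-0.34 beside -0.28). Over the pools left out in turn, the median of the 8 genes in XY against XO ran from -0.34 to -0.011. In the batch-regressed log2 values of the authors, 7 of 8 were higher in XX than in XO oocytes, with a median difference of 0.44 beside 0.28 over all genes tested, and Smad4 alone was lower, by a difference of -0.11. This comparison was chosen after seeing the data.

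**Figure D3:**
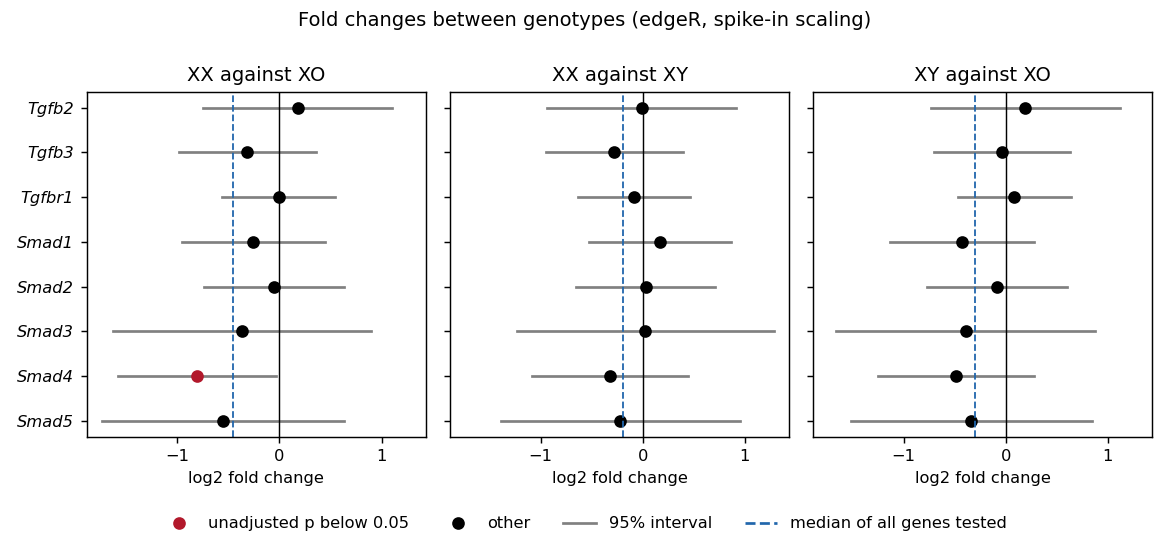
Points give the log2 fold change (edgeR, spike-in factors) of each gene in the 3 contrasts, with 95% intervals as bars and the median of all genes tested as a dashed line. Only the interval of Smad4 in XX against XO (-1.58 to -0.033) lies clear of 0, and 6 of the 8 fold changes of that contrast are positive with TMM factors on the genes.

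Single pools weighed on these calls. XO1 stood apart from XO2 and XO3 in Smad3, Smad5 and Tgfb3. Without XO1, Tgfb3 (log2 fold change -0.55, edgeR, adjusted p = 0.130) and Smad5 (-0.97, adjusted p = 0.0766) were called lower in XX than in XO oocytes, and Smad4 at -0.83 was no longer called (adjusted p = 0.136). In this fit 34.2% of all genes were called lower in XX, so that 2 of 8 was near the background. Smad4 also lost its call without XX1, XX2, XX3 or XY1, where its log2 fold change stayed between -0.81 and -0.80 with fewer pools in the fit (edgeR, adjusted p between 0.282 and 0.580), and without XO3, where it was -0.61 (adjusted p = 0.595). It kept its call without XO2, XY2 or XY3.

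The 8 genes were also compared with each other. The profiles over the 9 pools of log2(normalized CPM + 1), each centred on its mean, were compared by their root mean square difference. Smad2 was nearest to Tgfb2 (0.18) and Tgfbr1 (0.20), and Smad1 to Tgfbr1 (0.22). Smad3 and Smad5, SMADs of different arms, were near each other (0.24), and the greatest distances were those of Tgfb2 from Smad3 (1.00) and Smad5 (0.97). Relative to its mean, Tgfb2 stood at 0.30 and 0.61 in XO1 and XY1 and at -0.38 and -0.45 in XO3 and XY3, whereas Smad3 stood at -0.9995 and -1.05 in XO1 and XY1 and at 1.02 and 0.64 in XO3 and XY3. The spread of Smad3 within XO on the log2 scale fell from an SD of 1.04 to 0.19 in the batch-regressed values, and that of Smad5 from 1.11 to 0.27. These distances are descriptions over 9 pools that share their scaling factors, and genes that varied little lie near each other by this measure whatever their pattern.

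**Figure D4:**
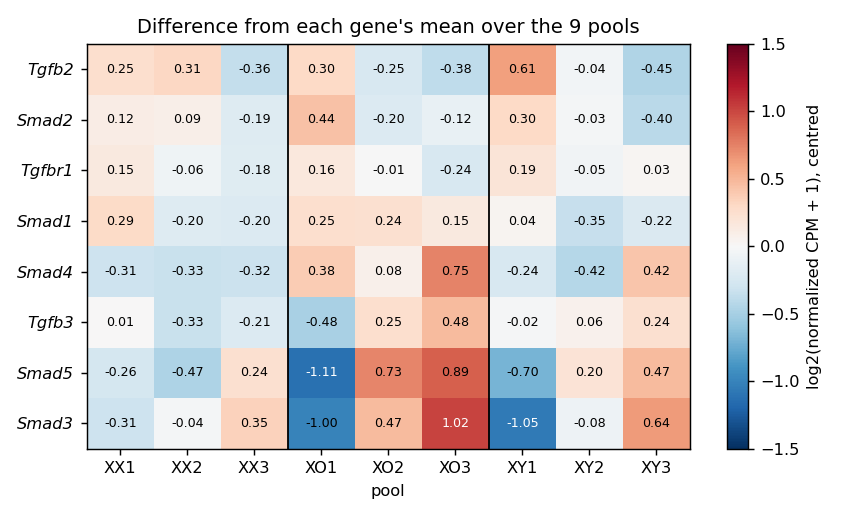
Cells give, for 8 genes (rows) and 9 pools (columns), the log2(normalized CPM + 1) minus the mean of the gene over the pools, in colour and as a number. In XO1 and XY1 the lower rows Smad5 and Smad3 lie between -1.11 and -0.70 while Tgfb2 and Smad2 lie between 0.30 and 0.61, and the signs are opposite in XO3 and XY3.

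Over all genes tested, the profile nearest to that of Tgfb2 was the profile of Ddx4, which encodes a germ cell RNA helicase (root mean square difference 0.0756), beside a median over 10992 genes of 0.616. The nearest profile was that of Gm15446 for Smad2 (0.0633), Shprh for Tgfbr1 (0.0882), Cdk15 for Smad5 (0.0938), Dis3l for Smad4 (0.104) and Trappc4 for Smad3 (0.164). Smad1 was below the minimum of 10 normalized CPM set for this search.

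The other genes of the TGF-beta superfamily pathway were taken from lists of 108 genes, of which 91 had a row and 39 were tested. In XX against XO, 1 was called higher and 4 lower in XX, and their median log2 fold change was -0.35, beside -0.46 over all genes tested. The share called was 2.56% higher and 10.3% lower, beside 1.4% and 16.7% of all genes. In XX against XY, 2 were called higher and 2 lower in XX, 5.13% each beside 1.41% and 4.39% of all genes, with a median of -0.00109 beside -0.19. In XY against XO, 0 were called higher and 3 lower in XY, 7.69% beside 8.24% of all genes, with a median of -0.38 beside -0.30. Adjusted p-values (edgeR) called 0 of them in any contrast.

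The other ligands, of which 4 of 12 with a row were tested, included Bmp15 and Gdf9. By the mean over the 9 pools these were the most abundant pathway transcripts after Tgfb2. The mean of Gdf9 (592 normalized CPM) rested largely on XO2 and XO3, and the order differed between genotypes. In XX oocytes the mean of Usp9x (587) was above that of Gdf9 (281). In XY oocytes the mean of Bmpr1b (374) was above those of Bmp15 (370) and Gdf9 (283). Bmp15, the X-linked oocyte growth factor, had 904, 809.9 and 1068 normalized CPM in XX, 633, 864 and 1165 in XO, and 367, 322 and 422 in XY pools. It was called lower in XY oocytes than in both other genotypes, with log2 fold changes of 1.32 for XX against XY (edgeR, adjusted p = 0.408) and -1.26 for XY against XO (adjusted p = 0.485). Gdf9, the oocyte ligand that signals through SMAD2 and SMAD3, had 252, 272 and 319 normalized CPM in XX, 339, 869 and 2432 in XO, and 234, 264 and 350.2 in XY pools. It was called lower in XX than in XO (-2.11, edgeR, adjusted p = 0.203), with XO3 far above XO1 and XO2. XY against XO was also called (-2.10, edgeR, adjusted p = 0.485), although XO1 lay within the XY range. The paper, whose fit included sva covariates, reports no difference of Gdf9 among the genotypes in these RNA-Seq data. It also found none for Gdf9 by qRT-PCR in oocytes of this size. The paper lists Tgf-β, without saying which gene, as not differentially expressed either. For Bmp15 it reports the lowest level in XY oocytes in these RNA-Seq data. By qRT-PCR it found Bmp15 lower in XY than in XX oocytes at almost every stage of growth. Bmp5 was called lower in XX than in XO (-0.82, edgeR, adjusted p = 0.244) and XY oocytes (-0.74, adjusted p = 0.834).

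Of the other receptors and coreceptors, 6 of 12 with a row were tested and 0 were called. Bmpr1b, a type I BMP receptor, had the highest mean at 310.5 normalized CPM, followed by the type II BMP receptor Bmpr2 (68.5) and the coreceptor Tgfbr3 (51.8). XX pools were below XY pools without overlap for Bmpr1b (212 to 267 against 310.0 to 466) and Bmpr2 (56.1 to 64.1 against 71.9 to 83.7), with log2 fold changes of -0.61 and -0.37, which were not called. Among all genes tested, pools did not overlap in this contrast for 15.8%, in either direction. Smad6 and Smad9, the other inhibitory and BMP SMADs, were not tested and stayed at or below 2.11 and 0.914 normalized CPM. The oocytes thus had few transcripts of both inhibitory SMADs.

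Among intracellular regulators, 20 of 26 were tested. Hgs, which sorts receptors on endosomes, was called lower in XX than in XO and XY oocytes. Its log2 fold changes were -1.31 for XX against XO (edgeR, adjusted p = 0.203) and -1.04 for XX against XY (adjusted p = 0.697). Its levels were 2.10 to 2.85 in XX, 4.52 to 7.24 in XO and 4.56 to 6.04 normalized CPM in XY pools. Hgs had only 100 UMIs over all pools, with the fewest per depth in XX, so that depth limits these calls. The filter on low counts does not require every genotype to reach it. Zfyve16, an endosomal protein that binds SMADs, was called higher in XX in the contrast with XO (0.73, edgeR, adjusted p = 0.272). The X-linked deubiquitinase Usp9x was the most abundant of the list and was called higher in XX than in XY oocytes (1.04, edgeR, adjusted p = 0.801). Usp15, another deubiquitinase, did not pass the test, with -0.58 for XX against XO. Tgif1, a SMAD corepressor, did not pass either, with 12.9 and 29.7 normalized CPM in XO1 and XY1 and 82.3 to 164 in the other pools.

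Among DNA partners and coactivators of SMADs, 6 of 10 with a row were tested. Ep300, a histone acetyltransferase, was called lower in XX (-0.64, edgeR, adjusted p = 0.266) and in XY (-0.63, adjusted p = 0.501) than in XO oocytes. Crebbp, Tfdp1 and Foxo3 had the highest means (113, 70.6 and 54.3 normalized CPM) and did not pass the test. Of the SMAD target genes, 2 of 16 with a row were tested and 0 were called, with Bhlhe40 (11.2), Klf10 (3.99) and Atf3 (2.33) the highest. Matrix and secreted modulators had 1 of 13 tested, Ltbp2, which encodes a matrix protein of the latent TGF-beta binding protein family (5.37), and it was not called (-0.86 for XX against XO, edgeR, adjusted p = 0.293). Itgav (2.22) and Furin (2.05), which serve ligand activation and processing, were not tested.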

How the data were processed

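The 9 samples were grouped by genotype from the GEO labels, 3 per genotype, and no sample was left out. Reads had been mapped by the authors with HISAT2 to GRCm38 in stranded mode. They counted UMIs of 5′ exons and deposited these counts per gene for 28052 genes and 79 ERCC spike-ins. A deposited signal matrix holds the counts of each sample multiplied by 1 constant from the spike-ins, called normalized CPM, and when checked constants recomputed here matched those of the authors within a relative difference of 8.88e-16. A deposited log2 matrix holds values after removal of batch effects by the authors (batch-regressed values), and the study itself tested with limma and sva covariates. Spike-ins made up 0.204 to 0.862% of the UMIs of a sample, between 5388 and 18532 UMIs. The XO column without a number was taken as XO1, since the others carry 2 and 3.

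Counts were tested with edgeR 4.0.16 in R 4.3.3 (quasi-likelihood F test, two-sided, filterByExpr by genotype, 10993 genes, 1 fit of all 9 samples, 3 contrasts), with library sizes times the spike-in factors, and checked on simulated data. A gene was called at an unadjusted p below 0.05, as in the study, and Benjamini-Hochberg adjusted p-values are over all genes tested. Alternatives were TMM factors, spike-in totals, DESeq2 1.42.0, limma 3.58.1 with 2 covariates from sva 3.50.0, no filter, a replicate block, leaving out each sample, and the batch-regressed values, the last added after seeing the data. Deviations of same-numbered samples from their group means correlated over genes at 0.826, 0.276 and 0.770 for XO with XY. The correlations were 0.461, -0.439 and 0.673 for XX with XO and 0.428, -0.0586 and 0.720 for XX with XY. XO2 correlated more with XY3 (0.715) than with XY2 (0.276), and the labels name no pairs. The replicate number is therefore not an established pairing. The replicate block used this number in all genotypes, XX included. Replicates within a genotype differed by more than sampling noise (chi-square per degree of freedom at least 2.27). Gene coordinates are those of the deposited matrix, and Gencode vM21 held 99.8% of its gene identifiers.

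The genes and lists were chosen with earlier results of these data known. The text names all genes of the set, in each list of other pathway genes the 3 with the highest mean and every gene called without overlap between the genotypes, and for each tested gene of at least 10 normalized CPM the 1 gene of nearest profile, except that for Tgfb3, which is not reported here.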

Additional observations from a re-analysis of the deposited data

How the results depend on the processing

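The directions of the 8 genes depended on the scaling and on single pools. Of 408 values of single genes under an alternative, 316 kept direction and, where tested, side of the threshold, and 80 changed sign. Of those, values with the following settings had a sign opposite to that with the spike-in factors, as log2 fold changes, and the cause was not tested. With TMM factors on the genes these were in XX against XO Tgfb3 (0.15), Tgfbr1 (0.40), Smad1 (0.16), Smad2 (0.35) and Smad3 (0.15), in XX against XY Tgfb2 (0.14) and Tgfbr1 (0.061), in XY against XO Tgfb3 (0.28), Smad2 (0.18) and Smad5 (0.015). With scaling to the spike-in totals these were in XX against XO Tgfb3 (0.51), Tgfbr1 (0.85), Smad1 (0.56), Smad2 (0.83), Smad3 (0.54), Smad4 (0.085) and Smad5 (0.36), in XX against XY Tgfb2 (0.75), Tgfb3 (0.40), Tgfbr1 (0.61), Smad4 (0.24) and Smad5 (0.51), in XY against XO Tgfb3 (0.11) and Smad2 (0.023). With DESeq2 and its own size factors these were in XX against XO Tgfb3 (0.038), Tgfbr1 (0.29), Smad1 (0.048), Smad2 (0.22) and Smad3 (0.043), in XX against XY Tgfb2 (0.13) and Tgfbr1 (0.071), in XY against XO Tgfb3 (0.16) and Smad2 (0.050). With limma-voom and 2 sva covariates these were in XX against XO Tgfb3 (0.14), Tgfbr1 (0.066), Smad1 (0.11), Smad2 (0.015) and Smad3 (0.29), in XX against XY Tgfb2 (0.14), in XY against XO Tgfb3 (0.29), Smad3 (0.18) and Smad5 (0.054). With the replicate block these were in XX against XY Tgfb2 (0.031). With the batch-regressed values (added after seeing the data, no test) these were in XX against XO Tgfb3 (0.52), Tgfbr1 (0.44), Smad1 (0.23), Smad2 (0.29), Smad3 (1.03) and Smad5 (0.84), in XX against XY Tgfb2 (0.17) and Tgfbr1 (0.052), in XY against XO Tgfb3 (0.66), Smad2 (0.093), Smad3 (0.73) and Smad5 (0.87). Leaving out each pool in turn, the sign changed for some results. In XX against XO the values ran from -0.11 to 0.093 for Tgfbr1, from -0.18 to 0.17 for Smad2 and from -0.77 to 0.12 for Smad3. In XX against XY the values ran from -0.23 to 0.33 for Tgfb2, from -0.032 to 0.29 for Smad1, from -0.13 to 0.22 for Smad2, from -0.31 to 0.54 for Smad3, from -0.50 to 0.012 for Smad4 and from -0.49 to 0.043 for Smad5. In XY against XO the values ran from -0.15 to 0.42 for Tgfb2, from -0.27 to 0.17 for Tgfb3, from -0.019 to 0.18 for Tgfbr1, from -0.27 to 0.14 for Smad2 and from -0.90 to 0.097 for Smad3.

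The count of called genes in XX against XO was 1 (Smad4) with the spike-in factors, 0 with TMM factors, the spike-in totals, DESeq2 and its own size factors, limma-voom and 2 sva covariates, and without the filter on low counts, and between 0 and 2 when each pool was left out. The Smad4 log2 fold change was -0.48 with DESeq2 and its own size factors, -0.11 with limma-voom and -0.81 without the filter (adjusted p between 0.496 and 0.956), and -0.81 with DESeq2 and the spike-in factors (adjusted p = 0.224). In the other contrasts 0 genes were called under every alternative with a test. With the replicate block the counts were 1, 0 and 0, Smad4 stood at -0.78 in XX against XO (edgeR, adjusted p = 0.172), and the block changed no call. With 17 to 30 UMIs of Smad1, 21 to 53 of Smad4 and 0 to 2 of Smad7 per pool, depth limits what these genes can show.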
